A study of Mus musculus with 20 samples.

Results

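The interferon response genes were followed here in pancreatic islets, in a comparison of P2Y14-knockout with wild-type mice. They were 35 genes named by symbol, of which 32 were among the 26211 genes of the normalized read count table. Gbp6, Cxcl9 and Psmb9 were not analysed here. All 32 passed the filter on low values (a mean of 10 or more across the 20 libraries), as did 17482 genes in total, and were tested.

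P2ry14 encodes P2Y14, a receptor that senses nucleotide sugars outside the cell, and the study's title concerns insulin release and smooth muscle function. RNA was sequenced from 10 libraries labelled P2Y14-knockout and 10 labelled wildtype, all of the mixed strain C57BL/6 x 129S6. The mice lived under barrier conditions free of pathogens, and the islets of both groups were freed with Liberase TL, picked by hand and cultured overnight in RPMI-1640 with fetal bovine serum. The labels do not say how old the mice were, how the allele was made or whether each library is a separate mouse, so p-values measure the spread between these libraries.

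Reads over genes ranged from 34520628 to 199847246 a library, with a median of 92323083 for the knockout and 105776893 for the wild-type group. P2ry14 was detected in 9 of the 10 knockout libraries, at normalized read counts from 0 to 114 in the knockout libraries, with a median of 44.8, and from 79.7 to 262 in the wild-type libraries, with a median of 118. This is a difference of −1.97 (SE 0.59; p = 0.00291, adjusted p = 0.244) on the log2 scale, and 2 of the 10 knockout libraries fell within the wild-type range. Reads from a part of the gene that the allele leaves in place would not check the genotype. The summed level of 10 markers of beta cells, which make up most of an islet, was between 14833200 and 38243500 in all 20 libraries. Acinar markers, from the enzyme-secreting tissue around islets, summed to between 1569690 and 22226700. Markers of T and NK cells were near 0: 11 of the 13, Cd3d, Cd3e, Cd8a, Ncr1 and Gzmb among them, had a median of 0. Since these are bulk libraries, fewer cells of a type and less RNA per cell cannot be told apart in any value below.

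Interferons are secreted proteins through which cells warn each other of viruses. Type I interferons bind Ifnar1 and Ifnar2, and the kinases Jak1 and Tyk2 then activate Stat2, which enters the nucleus in a complex with Irf9 that binds the interferon-stimulated response element (ISRE). Interferon-gamma, from T and NK cells, binds Ifngr1 and Ifngr2 and acts at the gamma-activated site (GAS), inducing Irf1, guanylate-binding proteins, immunity-related GTPases and the immunoproteasome. Beta cells respond to both, and an interferon signature in islets is known from autoimmune diabetes and from viral infection.

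Both elements were searched in the promoters of the genes. The choice of genes by symbol did not read the sequences, but interferons act on their target genes through these elements. A higher share in this set may therefore follow from the choice of genes. The RefSeq windows (build GRCm38.p6) run from 250 bases before the gene's start to 50 after it, and 26 of the 35 genes had one. The ISRE core was written as GAAANNGAAA and the GAS as TTCNNNGAA, each on both strands, where N is any base. The ISRE core stood in 14 of the 26 windows (53.8%), against 3.99% of the windows of all 27025 genes with an entry. The GAS stood in 7 (26.9%), against 9.55%. In all, 18 of the 26 held at least 1 of the 2, and Bst2, Igtp and Oas1a held both. The windows below belong to the genes with a match that take part in the 5 strongest correlations described further on, with the matches in capitals. The Psmb8 window is chr17:34197945-34198244, plus strand. Its GAS lies 97 to 89 bases before the start. The Bst2 window is chr8:71537423-71537722, minus strand, where a GAS overlaps with the first of 2 overlapping ISRE cores, so that a single run of capitals reaches from 136 to 115 bases before the start. The Gbp2 window is chr3:142620413-142620712, plus strand, with an ISRE core on the opposite strand from 59 to 50 bases before the start. The Ifi35 window is chr11:101448162-101448461, plus strand, and its GAS lies after the start, from base 7 to base 15. A match describes these letters only.
Psmb8: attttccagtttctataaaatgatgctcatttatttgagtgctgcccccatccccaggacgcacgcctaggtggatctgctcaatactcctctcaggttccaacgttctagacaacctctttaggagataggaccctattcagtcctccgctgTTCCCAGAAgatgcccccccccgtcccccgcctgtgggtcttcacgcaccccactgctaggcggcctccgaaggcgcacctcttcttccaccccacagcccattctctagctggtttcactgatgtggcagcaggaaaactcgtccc
Bst2: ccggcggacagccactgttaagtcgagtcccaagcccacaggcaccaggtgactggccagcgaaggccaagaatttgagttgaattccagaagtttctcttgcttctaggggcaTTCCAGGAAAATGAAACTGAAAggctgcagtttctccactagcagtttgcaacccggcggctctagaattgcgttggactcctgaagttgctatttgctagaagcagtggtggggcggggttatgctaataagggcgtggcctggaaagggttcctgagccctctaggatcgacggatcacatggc
Gbp2: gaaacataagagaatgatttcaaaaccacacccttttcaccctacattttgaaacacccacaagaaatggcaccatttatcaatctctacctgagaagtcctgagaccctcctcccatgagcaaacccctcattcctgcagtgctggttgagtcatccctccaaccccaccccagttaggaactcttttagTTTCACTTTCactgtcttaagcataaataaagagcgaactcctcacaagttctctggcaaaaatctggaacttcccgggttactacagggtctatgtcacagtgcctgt
Ifi35: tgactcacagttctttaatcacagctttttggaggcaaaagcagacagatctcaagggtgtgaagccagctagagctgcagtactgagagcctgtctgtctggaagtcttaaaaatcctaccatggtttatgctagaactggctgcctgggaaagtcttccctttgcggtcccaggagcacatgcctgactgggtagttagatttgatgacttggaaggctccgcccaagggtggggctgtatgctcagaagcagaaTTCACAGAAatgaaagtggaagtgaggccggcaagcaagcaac

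The genes covered a wide range of levels. Per kilobase of GENCODE M21 exon length, the median normalized read count over the 20 libraries was highest for Ifi27, at 3397, followed by Irf1 at 934 and Ifi35 at 549. Ifi27 encodes a small mitochondrial membrane protein, and Ifi35 a leucine zipper protein. The lowest were Cxcl10 at 0.876, Mx2 at 6.74, Ifi44 at 9.00 and Ifit2 at 9.37. In normalized read counts, which are not corrected for length, 3 genes had a median of at least 1000 (Ifi27, Irf1 and Stat2), and 11 had a median under 100. Isg15, Oas2, Mx1, Mx2 and Cxcl10 had 0 reads in at least 1 library. No interferon gene passed the filter: of 13 searched, only Ifnk was in the table, and it had 0 reads in 15 of the 20 libraries. Ifnb1 and Ifng were not analysed here.

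Knockout and wild-type islets were compared to ask whether loss of P2Y14 changes the interferon response. None of the 32 genes passed an adjusted p of 0.05, in either direction, by limma, although Mx1 did in 3 of the alternatives given below. Among all 17482 genes, 0.160% were called higher and 0.120% lower in knockout. At an unadjusted p under 0.05, Rsad2 and Iigp1 were higher (2 of 32, against 4.31% of all genes) and Mx1 was lower (1 of 32, against 4.63% of all genes). edgeR and DESeq2 on the recovered reads likewise called none of the 32. Log2 fold changes were positive for 14 genes and negative for 18, with a median of −0.03, beside −0.002 over all genes tested. The 9 tested genes of a list of interferon-gamma targets (Irf1, Gbp2, Gbp3, Iigp1, Igtp, Irgm1, Cxcl10, Psmb8 and Tap1) had a median of 0.09, and the 23 others −0.14. Levels in knockout and wild-type libraries overlapped for all 32 genes. Among all genes tested, 0.0114% had every knockout library above and 0.0229% every knockout library below all wild-type libraries, so overlap says nothing particular about these genes.

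**Figure D1:**
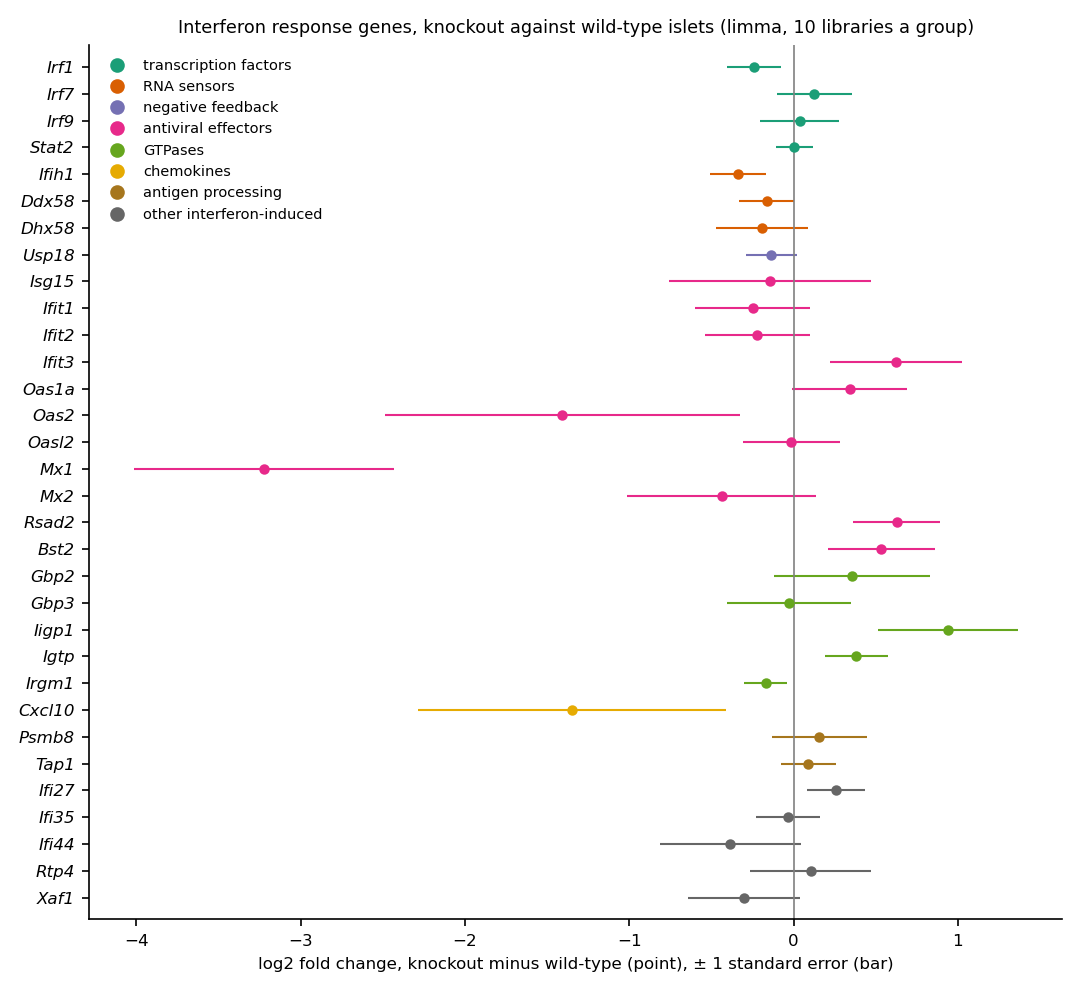
Log2 fold change of each of the 32 interferon response genes, knockout minus wild-type (x axis, points, with bars of 1 standard error; limma on 10 libraries a group), by gene (y axis) and coloured by role. Mx1 lies farthest from 0, at −3.22, and most bars of the other genes reach or come near 0.

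The transcription factors carry and amplify the signal, and none of the 4 passed the test. Irf1, a factor induced by interferon-gamma, had normalized read counts from 2322 to 5289 in the knockout libraries, with a median of 3412, and from 2719.6 to 7159.9 in the wild-type libraries, with a median of 4089. The wild-type range reached higher, with 2 wild-type libraries above every knockout library. The log2 fold change of Irf1 was −0.24 (SE 0.17; p = 0.160, adjusted p = 0.690). Irf7, which amplifies type I interferon production, ranged from 299 to 1167 in the knockout libraries, with a median of 560.2, and from 264 to 891 in the wild-type libraries, with a median of 612, and its log2 fold change was 0.13 (SE 0.23; p = 0.579, adjusted p = 0.895). The 2 highest libraries were knockout replicates, and 7 of the 10 knockout libraries nevertheless lay below the wild-type median. Endothelial and macrophage markers both moved with Irf7 (r = 0.718 and 0.664). With the macrophage score as a covariate the log2 fold change of Irf7 was −0.10, and the part of either cell type was not tested. Stat2, which carries the type I signal, was the steadiest of the 4, from 1096 to 2002 in the knockout libraries, with a median of 1346, and from 1119 to 1747 in the wild-type libraries, with a median of 1411. The ranges nearly coincided, with a log2 fold change of 0.00 (SE 0.11; p = 0.966, adjusted p = 0.994). Irf9, which binds DNA in that complex, had a log2 fold change of 0.04. Exons of Irf9 overlap with those of Rnf31, and exons of Irf1 and Irf7 with genes on the opposite strand, so their reads are uncertain in a kit that does not mark strand.

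The 3 cytoplasmic RNA sensors, Ifih1, Ddx58 and Dhx58, recognise viral RNA and are themselves induced by interferon. All 3 had negative fold changes, from −0.34 to −0.16, and none passed the test. Ifih1 had normalized read counts from 344 to 782 in the knockout libraries, with a median of 582, and from 507 to 1057 in the wild-type libraries, with a median of 668. Here 4 wild-type libraries lay above every knockout library and 3 knockout libraries below every wild-type library. Its log2 fold change was −0.34 (SE 0.17; p = 0.0569, adjusted p = 0.579). Ddx58 ranged from 656 to 1366 in knockout and from 777 to 2206 in wild-type. Dhx58 ranged from 61.1 to 311 in knockout and from 105 to 341 in wild-type, and its exons overlap with those of Dhx58os on the opposite strand. Usp18, which removes Isg15 from proteins and dampens signalling at Ifnar2, ranged from 239 to 571 in knockout and from 296 to 528 in wild-type, with a log2 fold change of −0.14.

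Of the 11 antiviral effectors, 7 had negative and 4 positive fold changes, and none passed the test. Mx1, a dynamin-like GTPase that blocks influenza virus and is defective in many laboratory strains, showed the largest fold change of all 32 genes. In knockout replicates 1 to 10 its normalized read counts were 16.4, 33.0, 0, 12.0, 80.0, 116, 0, 27.8, 0 and 15.0. In wild-type libraries 11 to 20 they were 82.4, 139.8, 70.8, 82.2, 128, 51.8, 133, 300.4, 136 and 63.5. Only knockout replicates 5 and 6 reached into the wild-type range, and the other 8 lay under all of it. The knockout mean was 30.0 ± 38.4 (SD, n = 10) and the wild-type mean 119 ± 71.9 (SD, n = 10), which gives a ratio of 0.252. On the log2 scale, where libraries at 0 weigh more, the difference was −3.22 (SE 0.79; p = 0.000524, adjusted p = 0.104). Mx1 was called with a pseudocount of 10 (log2 fold change −2.06, adjusted p = 0.0314), without knockout replicate 5 (−3.54, adjusted p = 0.0480) and without knockout replicate 6 (−3.60, adjusted p = 0.0336). On the recovered reads it was −2.04 by edgeR (adjusted p = 0.373) and −2.004 by DESeq2 (adjusted p = 0.158). Over its alternatives the adjusted p ran from 0.0314 to 0.373. Reads of Mx1 numbered 0 to 52 in knockout and 43 to 303 in wild-type libraries. The knockout libraries with 0 reads, replicates 3, 7 and 9, held 132927266, 58245812 and 64398879 reads over genes, and 0 reads there allow normalized counts of up to 2.30, 6.11 and 4.29, for counting error only. Macrophage and endothelial markers moved little with Mx1 (r = −0.172 and 0.162). Its neighbour on chromosome 16, Mx2, had a median of 22.8 in knockout and 31.4 in wild-type, and the log2 fold change of Mx2 was −0.44 (adjusted p = 0.849).

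**Figure D2:**
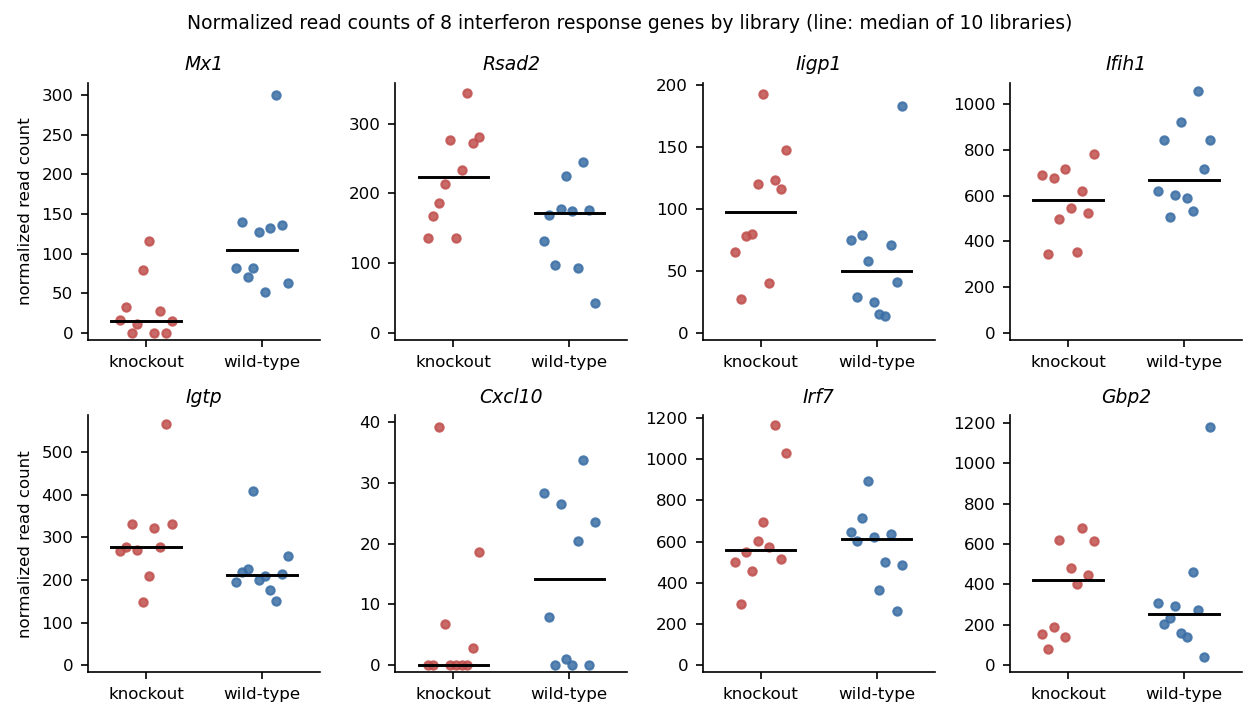
Normalized read counts (y axis, linear, from 0) of 8 interferon response genes in the 10 knockout and 10 wild-type libraries (1 point a library; the line is the group's median). Mx1 shows 8 knockout points under the lowest wild-type point, at 51.8, and Cxcl10 has 6 knockout points at 0.

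Rsad2, whose product viperin makes a chain-terminating nucleotide, leaned the other way from Mx1. It ranged from 136 to 343 in the knockout libraries, with a median of 224, and from 42.8 to 245 in the wild-type libraries, with a median of 172, and 4 knockout libraries lay above every wild-type library. The log2 fold change was 0.63 (SE 0.26; p = 0.0270, adjusted p = 0.495). Ifit3 had a knockout median of 54.2 (lowest 17.99, highest 168) against a wild-type median of 37.5 (lowest 17.2, highest 60.5). It belongs to the Ifit proteins, which bind viral RNA, and 5 knockout libraries exceeded every wild-type library. Its log2 fold change was 0.62 (SE 0.40; p = 0.136, adjusted p = 0.674), or 0.38 with the macrophage score as a covariate. Ifit3 had r = 0.645 with endothelial markers (adjusted permutation p = 0.0224) and r = 0.463 with macrophage markers (adjusted permutation p = 0.149). Ifit1 had a knockout median of 43.8 (lowest 7.48, highest 109) against a wild-type median of 52.1 (lowest 28.9, highest 81.2), with a log2 fold change of −0.25 (SE 0.35; p = 0.483, adjusted p = 0.860). The knockout libraries of Ifit1 lay on both sides of the wild-type range, 2 below and 2 above, and the fold change turned to 0.01 without knockout replicate 10. By edgeR it was −0.006 and by DESeq2 −0.003. Reads of Ifit3 may be shared with its near-identical copy Ifit3b, and those of Oas1a with Oas1g.

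Bst2, tetherin, which holds budding viruses at the cell surface, had a knockout median of 203 (lowest 134, highest 503) against a wild-type median of 149.99 (lowest 85.3, highest 539). The highest library was wild-type and 3 wild-type libraries lay below every knockout library. Between genotypes Bst2 differed by 0.53 (SE 0.33; p = 0.115, adjusted p = 0.650) on the log2 scale, and by 0.11 with the macrophage score as a covariate. Isg15, a ubiquitin-like modifier, was low, from 0 to 72.9 in the knockout libraries, with a median of 25.3, and from 7.47 to 87.6 in the wild-type libraries, with a median of 20.9. At these levels the log2 fold change, −0.14 (SE 0.62; p = 0.818, adjusted p = 0.962), depended on how near-0 libraries were treated: it was 0.12 by edgeR, 0.14 by DESeq2 and 0.33 without knockout replicate 7, the library at 0. It was also above 0 without knockout replicate 5 (0.014) and without wild-type library 17 (0.085). Oas1a, Oas2 and Oasl2 belong to the family of oligoadenylate synthetases, which switch on RNase L against viral RNA. Their fold changes were 0.34, −1.41 and −0.01. The large value of Oas2 came with an SE of 1.08 and 3 knockout and 1 wild-type libraries at 0. Ifit2 had a fold change of −0.22.

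The interferon-inducible GTPases attack vacuoles that hold intracellular microbes. Of the 5 tested, 3 had positive and 2 negative fold changes, with a median of 0.36, and none passed the test. Iigp1 had normalized read counts from 27.2 to 193 in the knockout libraries, with a median of 97.9, and from 13.7 to 183 in the wild-type libraries, with a median of 49.8. In 8 of 10 knockout libraries it exceeded the wild-type median, yet the second-highest value belonged to a wild-type library. Its log2 fold change was 0.94 (SE 0.43; p = 0.0385, adjusted p = 0.531). Iigp1 moved with endothelial markers (r = 0.628, adjusted permutation p = 0.0264). With macrophage markers r was 0.559, which did not pass (adjusted permutation p = 0.0687). The fold change of Iigp1 was 0.62 with the macrophage score as a covariate (limma, adjusted p = 0.757). Igtp had a knockout median of 277 (lowest 149, highest 565) against a wild-type median of 211 (lowest 151, highest 408), and again 8 knockout libraries lay above the wild-type median. The log2 fold change of Igtp was 0.38 (SE 0.19; p = 0.0611, adjusted p = 0.582). Exons of Igtp overlap with those of Irgm2, so some of its reads may belong to that gene. Gbp2 had a knockout median of 424 (lowest 82.5, highest 678) against a wild-type median of 253 (lowest 42.9, highest 1181). Its highest library was wild-type library 20, and its log2 fold change was 0.36 (SE 0.47; p = 0.460, adjusted p = 0.851), or −0.21 with the macrophage score as a covariate. Gbp3 and Irgm1 had fold changes of −0.03 and −0.17. Gbp2, Gbp3 and Ifi44 lie on chromosome 3, as does P2ry14, but far from it in gene order: they are numbers 759, 757 and 799 of the 833 tested genes there, and P2ry14 is number 174.

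Cxcl10, a chemokine that attracts T cells and is secreted by stressed beta cells, was the lowest of the 32 genes. It had 0 reads in 6 knockout and 3 wild-type libraries. Its counts ranged from 0 to 39.2 in the knockout libraries, with a median of 0, and from 0 to 33.7 in the wild-type libraries, with a median of 14.2. The log2 fold change was −1.35 (SE 0.94; p = 0.164, adjusted p = 0.692), and the highest library was a knockout replicate. With 9 libraries at 0, the value depended on the pseudocount, and was −0.54 with a pseudocount of 10. For antigen processing, Psmb8, a catalytic subunit of the immunoproteasome, had a knockout median of 316 (lowest 114, highest 847) against a wild-type median of 253 (lowest 171, highest 518). The knockout libraries spread more widely than the wild-type ones, on both sides. The log2 fold change of Psmb8 was 0.16 (SE 0.29; p = 0.590, adjusted p = 0.9005), or −0.21 with the macrophage score as a covariate. Tap1, which carries peptides into the endoplasmic reticulum, ranged from 562 to 1406 in knockout and from 560 to 1244 in wild-type, with a fold change of 0.09. Exons of Tap1 overlap with those of Psmb9 on the opposite strand, as do those of Cxcl10 with Art3 and of Psmb8 with Gm20496. Some reads of Cxcl10, Psmb8 and Tap1 may therefore belong to those genes.

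The remaining 5 genes did not pass the test either. Ifi27 had a knockout median of 5596 (lowest 3208, highest 7813) against a wild-type median of 4432 (lowest 2762, highest 7302), and 8 knockout libraries exceeded the wild-type median. Its log2 fold change was 0.26 (SE 0.17; p = 0.152, adjusted p = 0.687). Ifi27 moved with acinar markers (r = 0.741, adjusted permutation p = 0.00341). Of these, 13 of 14 had positive fold changes in knockout, with a median of only 0.12, and none was called (limma, lowest adjusted p = 0.796). With the acinar score as a covariate the fold change of Ifi27 was 0.22. Ifi27 also moved with macrophage markers (r = 0.639, adjusted permutation p = 0.0242), and with their score as a covariate its fold change was 0.10. Ifi35, Ifi44, Rtp4 and Xaf1 had fold changes of −0.03, −0.38, 0.10 and −0.30. Exons of Ifi35 overlap with those of Gm11626 on the opposite strand.

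The rest of the pathway was read from lists drawn up for it, and no gene of it passed the test. Among 9 receptors and kinases, Jak1, the kinase used by every interferon receptor, had a knockout range of 2942 to 3685 and a wild-type range of 3261 to 4831, and the log2 fold change of Jak1 was −0.28 (SE 0.08, adjusted p = 0.226). Ifnlr1, Il10rb and Jak2 followed, at 0.41, 0.14 and −0.11. Of 13 transducers and regulators, 6 had positive and 7 negative fold changes. Irf2, which opposes Irf1, was at −0.28 (SE 0.11, adjusted p = 0.460) and Stat3 at −0.44 (SE 0.21, adjusted p = 0.558), while Irf5 and Nlrc5, the activator of MHC class I genes, were at 0.34 and 0.91. Of 14 nucleic acid sensing genes, 6 had positive and 8 negative fold changes. Trim25, which activates the protein of Ddx58, was at −0.26 (SE 0.11, adjusted p = 0.496), and the adaptors Myd88 and Mavs were at −0.35 and −0.19. Adar, which edits double-stranded RNA, was at −0.14. Of 44 other interferon-induced genes, 27 had positive and 17 negative fold changes, with a median of 0.06. Slfn8 was at 2.33 (SE 0.93, adjusted p = 0.469) with 10 libraries at 0, and Tapbp, the peptide-loading chaperone tapasin, was at −0.22 (SE 0.10, adjusted p = 0.531). Samd9l and Lgals3bp were at 0.31 and −0.23.

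The mean standardised log2 level of the 32 genes, taken per library as a summary of the set, ranged from −0.814 to 0.738 in knockout and from −0.508 to 0.769 in wild-type. The group means were −0.0209 ± 0.521 (SD, n = 10) and 0.0209 ± 0.367 (SD, n = 10). The 3 highest libraries were wild-type library 20, knockout replicate 8 and knockout replicate 10, and the 3 lowest were knockout replicate 2, knockout replicate 7 and wild-type library 19. Wild-type library 20 held the highest value of 7 genes and knockout replicate 10 that of 6. The standard deviation of the log2 level was larger in knockout for 20 of the 32 genes (62.5%), against 58.3% of all genes tested. Its median over the 32 genes was 0.77 in knockout and 0.56 in wild-type, beside 0.44 and 0.41 over all genes. Low counts vary more on this scale, and 11 of the genes had a median under 100. The smallest size factors, by which reads are divided, were 0.389, 0.491 and 0.535, in knockout replicates 6, 7 and 10. The part of depth in this difference was not tested.

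**Figure D3:**
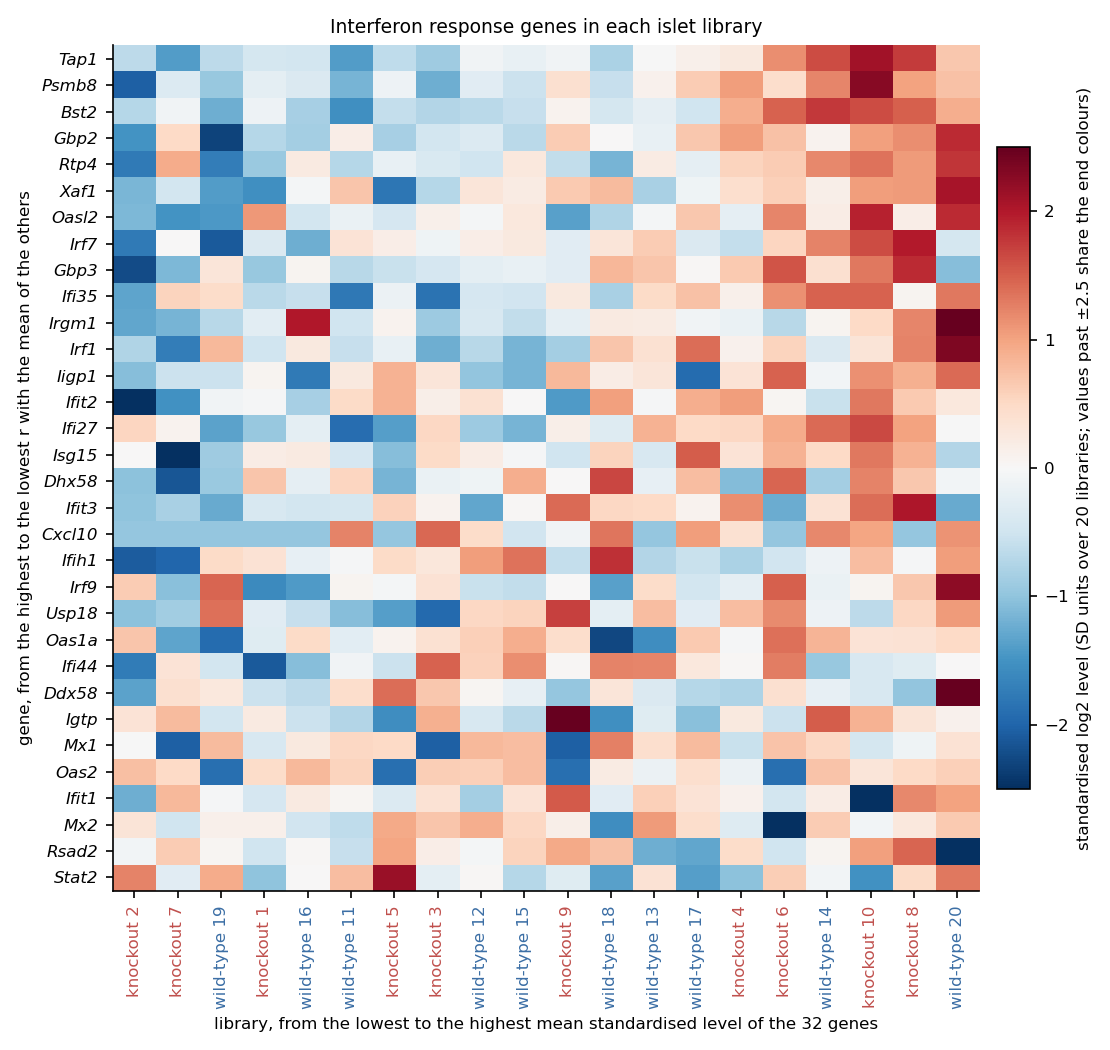
Standardised log2 level (colour, in SD over the 20 libraries, with values past ±2.5 in the end colours) of the 32 genes (rows, from the highest to the lowest correlation with the mean of the others) in each library (columns, from the lowest mean level, −0.814, to the highest, 0.769; red labels are knockout and blue labels wild-type). Knockout and wild-type libraries mix along the order, and the upper rows share high values in the libraries on the right.

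The genes covaried over the 20 libraries, some far more than others. Of the 496 pairs, 353 had a positive Pearson r, with a median of 0.176, beside −0.001 over all pairs of the 17482 genes tested, of which 49.8% were positive. After adjustment over the 496 pairs, 19 positive and 1 negative correlations had a permutation p under 0.05, and 14 and 1 by Spearman's rho. Genes of the interferon-gamma list correlated with each other at a median of 0.347 (36 pairs), with the others at 0.230 (207 pairs), and the others among themselves at 0.0815 (253 pairs). Within knockout libraries the median over all pairs was 0.255, and within wild-type libraries 0.1505. The difference between these was not tested. The 14 genes with an ISRE core in the promoter window correlated at a median of 0.0929, and the 10 tested genes with a window and no such match at 0.384.

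A group of Bst2, Psmb8, Tap1, Gbp2, Rtp4 and Ifi35 held 12 of the 19 positive correlations past the adjusted p. The group was picked after these correlations were seen, as the genes in the most of them, so the count of 12 follows from that choice. These genes serve antigen processing (Psmb8, Tap1), virus restriction (Bst2) and defence against vacuolar microbes (Gbp2), while Rtp4 is a receptor-transporting protein. The highest correlation joined Bst2 and Tap1, at r = 0.888 (rho = 0.795, permutation p = 1e-05, adjusted p = 0.00165), where 1e-05 is the smallest p that the permutations can give. It was 0.914 within knockout, 0.937 within wild-type and 0.833 without the 2 libraries farthest from the median of Bst2. Psmb8 and Tap1, neighbours on chromosome 17, were at r = 0.835 (rho = 0.901, permutation p = 1e-05, adjusted p = 0.00165), and at 0.836 without 2 libraries. Bst2 and Psmb8, on different chromosomes, were at r = 0.830 (rho = 0.863, permutation p = 1e-05, adjusted p = 0.00165), and at 0.763 without 2 libraries. Both promoter windows hold a GAS, whereas that of Tap1 holds neither element, and correlations were not compared by GAS. Gbp2 and Xaf1, a pro-apoptotic gene, were at r = 0.796 (rho = 0.773, permutation p = 4e-05, adjusted p = 0.00397), and at 0.707 without 2 libraries. Psmb8 and Ifi35 were at r = 0.794 (rho = 0.785, permutation p = 4e-05, adjusted p = 0.00397), and at 0.748 without 2 libraries. Within each genotype, the 5 correlations lay between 0.790 and 0.937.

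**Figure D4:**
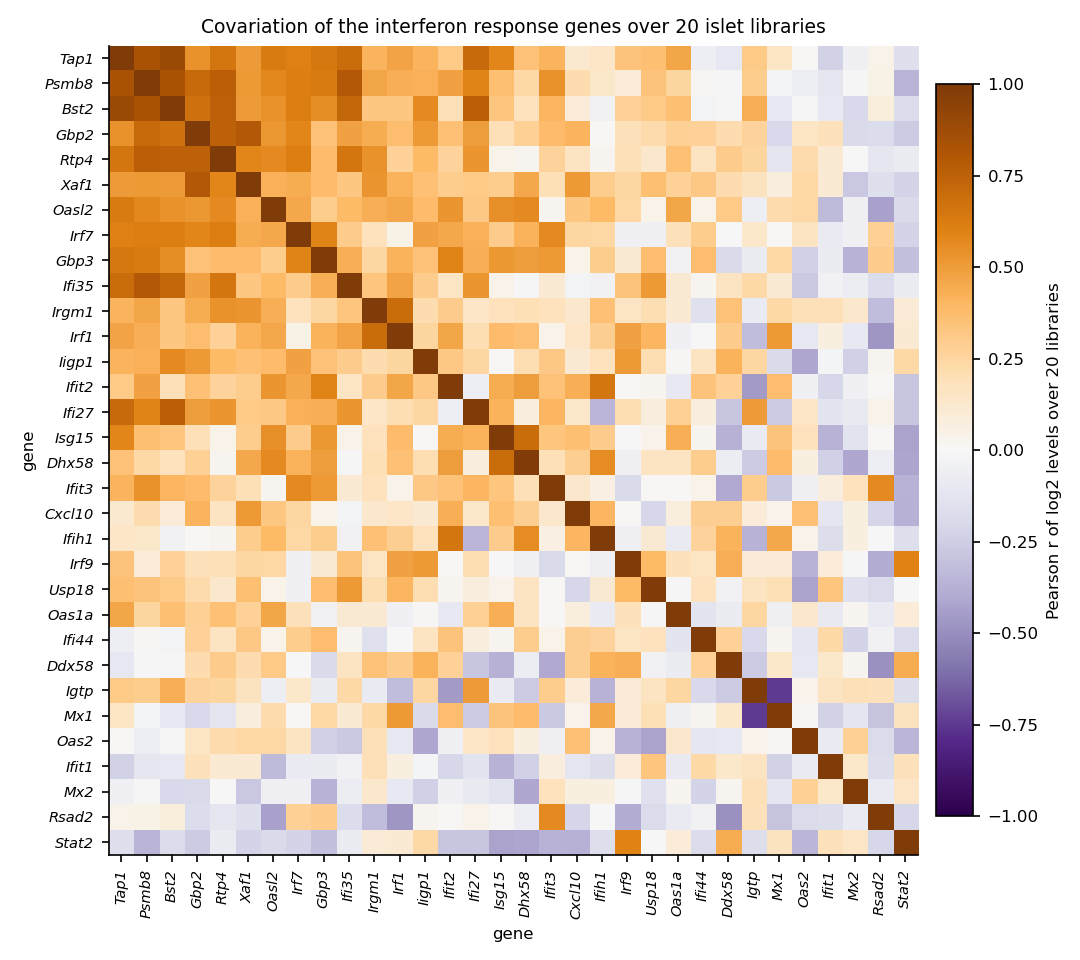
Pearson r (colour) of the log2 levels over 20 libraries for each pair of the 32 genes, both axes from the highest to the lowest correlation with the mean of the others. The block of high values at the upper left, up to 0.888 for Bst2 and Tap1, gives way to values near 0 toward the lower right, and the darkest negative cell joins Mx1 and Igtp at −0.744.

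At the other end, Stat2, Rsad2, Mx2, Ifit1 and Oas2 had r between −0.222 and −0.0255 with the mean of the other genes, whereas Tap1 reached 0.830. The only negative correlation past the adjusted p joined Mx1 and Igtp, at r = −0.744 (rho = −0.738, permutation p = 0.00019, adjusted p = 0.00942). It was −0.785 within knockout and −0.535 within wild-type. Knockout replicates 3, 7 and 9, all at 0, lay equally far from the median of Mx1. Without the first 2 of them r was −0.797, and replicate 9, the highest library for Igtp, stayed in. Both genes encode GTPases of innate defence. Next came Ddx58 and Rsad2, at r = −0.485 (rho = −0.144, permutation p = 0.0397, adjusted p = 0.252), and Irf1 and Rsad2, at r = −0.470 (rho = −0.229, permutation p = 0.0359, adjusted p = 0.245). Without their 2 farthest libraries, wild-type library 20 among them in both cases, these came to −0.120 and −0.0938, so they rest on those libraries.

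The libraries high in the interferon response genes were also high in RNA of vessels and connective tissue. The 10 genes outside the set most like it, by Pearson r with the mean standardised level over the 20 libraries, were Pecam1 (0.923), Emp1, Thy1, Pltp, Anxa2, Cd34, Col1a2, Tgfbr2, C1ra and C1s1 (0.880). Pecam1 and Cd34 mark endothelial cells, Thy1 and Col1a2 mark fibroblasts, and C1ra and C1s1 are complement genes. None of the 10 was called between genotypes. The mean level had r = 0.846 with the score of 8 endothelial markers (0.851 within genotype, 0.761 without 2 libraries). It had r = 0.845 with a score of 10 mesenchymal markers, a list chosen after Col1a2 and Thy1 were seen to be alike (0.907 without 2 libraries). Col1a2 is itself in that list, so part of this r follows from the choice. With the macrophage and dendritic cell score r was 0.734 (0.657 without 2 libraries), with the beta cell score −0.497 (−0.376 without 2 libraries) and with total reads −0.184. These correlations describe 20 libraries whose cell makeup varied, and the part of cell makeup in the covariation was not tested. With the endothelial or the mesenchymal score regressed out of every gene, the median r over the 496 pairs was 0.039 in both cases. Both scores were chosen for this after they were seen to follow the mean level. Removing any score that follows the mean level lowers these correlations, so this value is no test of cell makeup.

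**Figure D5:**
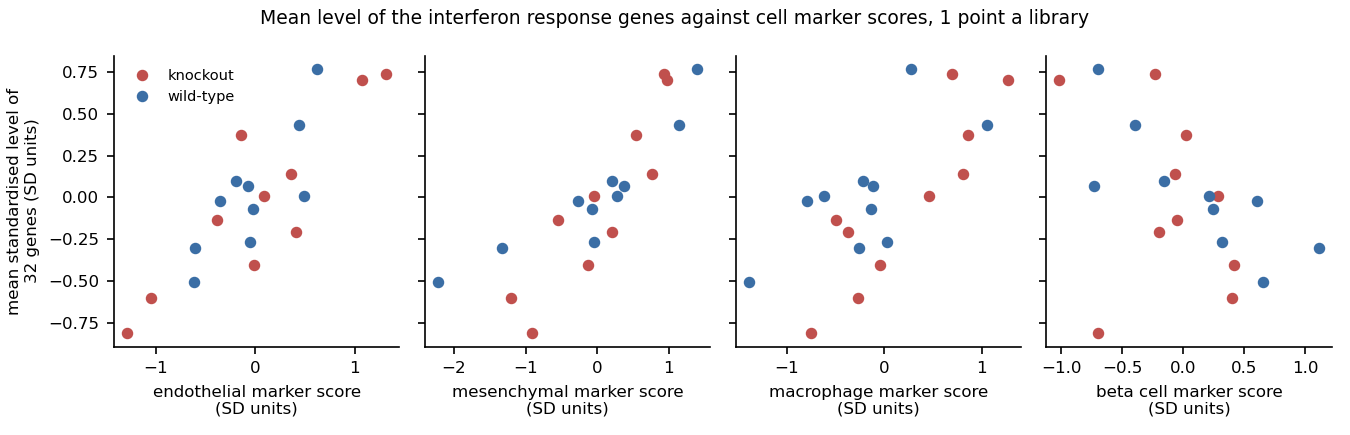
Mean standardised log2 level of the 32 genes (y axis, SD units) against the scores of endothelial, mesenchymal, macrophage and beta cell markers (x axes, SD units), with 1 point a library, red for knockout and blue for wild-type. The points rise with the first 3 scores, at r = 0.846, 0.845 and 0.734, and lie lower at high beta cell scores, at r = −0.497. The mesenchymal list was chosen after Col1a2, which it holds, was seen to follow the mean level.

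Single genes followed these scores to different degrees. Of 128 correlations of the 32 genes with 4 marker scores (endothelial, macrophage and dendritic, acinar and beta cells), endothelial markers gave a positive r for 29 genes, with a median of 0.439, and 9 past an adjusted permutation p of 0.05 (4 by Spearman's rho). Psmb8 was highest, at r = 0.749 (rho = 0.684, adjusted p = 0.00341, r = 0.665 without 2 libraries). Irf7 and Ifit2 followed, at 0.718 and 0.710. The macrophage and dendritic cell score gave a median of 0.341 and 7 genes past the adjusted p (4 by rho). Bst2 was highest there, at r = 0.857 (rho = 0.767, adjusted p = 0.00256, r = 0.827 without 2 libraries), followed by Psmb8 at 0.827, Tap1 at 0.774 and Gbp2 at 0.761. These are the core of the correlated group. The interferon-gamma list had a median r of 0.611 with endothelial and 0.492 with macrophage markers, and the other genes 0.280 and 0.220. Between genotypes, 13 of 17 macrophage and dendritic cell markers had positive fold changes in knockout, with a median of 0.46 and none called. By limma at an unadjusted p under 0.05, 3 of the 17 were higher (against 4.31% of all genes) and 0 lower (against 4.63%). Their summed level had a median of 4642 in knockout (range 2447 to 8307) and 3741 in wild-type (range 2298 to 7403). The summed endothelial level had medians of 34911 and 34879. Alpha cell markers had negative fold changes for 5 of 6, with a median of −0.57 and none called (limma, lowest adjusted p = 0.318). At an unadjusted p under 0.05, 5 of the 6 were lower, against 4.63% of all genes. The alpha cell score had r = −0.295 with the mean level of the 32 genes. With the macrophage score as a covariate, the median fold change of the 32 genes was −0.21. The part of these cells in the fold changes was not tested further.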

How the data were processed

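RNA-seq libraries of islets from 10 knockout and 10 wild-type samples were used. The authors deposited normalized read counts per gene, a signal unit, made by dividing each library's reads by its size factor. Per the submitters' processing notes, the tools were DESeq 1.16.0, Cufflinks 1.3.0, Bowtie 0.9.9, TopHat 1.3.3 and FastQC, with build mm9. The counting tool, its annotation and its use of strand are not named in the labels or notes, and the library kit named in the labels' protocols does not mark strand. The deposited columns were linked to genotype by name. Whole reads were recovered for 100% of values within 0.05 of a whole number.

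Ensembl IDs were named with GENCODE M21 (23950 named). Levels on the log2(value + 1) scale, which pulls the fold changes of low genes toward 0 but gives more weight to libraries at 0 than a ratio of means does, were compared for genes whose mean reached 10, using limma 3.58.1 in R 4.3.3 and Benjamini-Hochberg adjustment over all 17482 genes. The recovered reads were tested with edgeR 4.0.16 (quasi-likelihood) and DESeq2 1.42.0. The fit was tested on simulated data. Correlations used 100000 permutations, two-sided, with Benjamini-Hochberg adjustment over 496 pairs or 128 relations with marker scores. Intervals and floors (3 reads) cover counting error only. Other settings were 2 pseudocounts, 2 filters, 2 scalings, a robust fit, marker scores as covariates and each library left out. Full statistics are given for the 10 genes with the smallest p and for Irf7, Stat2, Irf1, Isg15, Ifit1, Cxcl10, Gbp2 and Psmb8, for the 5 highest and 3 lowest correlations, for the 10 genes most like the set and for the 4 smallest p of each pathway list. The 6 genes named as a correlated group were singled out after their values were seen. The members and lists were chosen with earlier results of these data known. Python 3.11.15, scipy 1.17.1 and matplotlib 3.10.9 were used.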

Additional observations from a re-analysis of the deposited data

Results flagged for a closer look

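A single library stood far from the other 9 of its group, by Dixon's criterion for 10 samples on the log2 scale, in 3 of the 64 groups of 10 libraries tested (32 genes in each genotype). Chance gives such a gap in about 1 in 20 groups. Ddx58 had a normalized read count of 2206 in wild-type library 20, the highest of its group by 0.704 of the group's range. Oas2 had 0 in wild-type library 19, a gap of 0.646 of the range. Mx2 had 0 in knockout replicate 6, a gap of 0.659 of the range.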

How the results depend on the processing

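The number of genes higher in knockout was 0 under all 34 alternatives, and the number lower was 1, Mx1, with a pseudocount of 10, without knockout replicate 5 and without knockout replicate 6 (range 0 to 1 over each library left out). The median log2 fold change of the 32 genes ran from −0.113 to 0.031 over each library left out. Of the single values that changed sign, none passed the test: Isg15 was 0.052 with a pseudocount of 10, 0.123 by edgeR and 0.135 by DESeq2, Stat2 was −0.003 after quantile normalization, and Irf7, Gbp2 and Psmb8 were −0.102, −0.207 and −0.213 with the macrophage score as a covariate. With each library left out, Isg15 ran from −0.360 to 0.330, Stat2 from −0.052 to 0.045, Ifit1 from −0.397 to 0.013 and Psmb8 from −0.003 to 0.318. The median correlation over pairs was 0.124 after quantile normalization, 0.265 when only genes whose mean reached 100 were kept, and 0.039 with the endothelial or the mesenchymal score regressed out (both chosen after seeing the data), and ran from 0.146 to 0.194 with each library left out. Why it moved was not tested. No paired analysis was possible because the wild-type columns carry the numbers 11 to 20, whereas the labels number both groups from 1 to 10. Depth limits the low genes: Cxcl10, Isg15, Oas2, Mx1 and Mx2 had 0 reads in at least 1 library, where 3 reads amount to a normalized read count between 1.28 and 7.71.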

Other observations

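Other cell markers gave lower correlations with the mean standardised level of the 32 genes over the 20 libraries, given here as a description. Each score used only the markers that passed the filter on low values. For T and NK cells, which make interferon-gamma but whose markers were near 0 here, this left 1 of 13 markers, Cd2. Cd2 had r = 0.491 and 0 reads in 7 libraries. Without 2 of these 7, which lay farthest from its median, r was 0.400. The score of plasmacytoid dendritic cells, known as strong producers of type I interferon, held 3 of 4 markers. It had r = 0.457 (0.335 without 2 libraries). The B cell score held Cd79a and Cd79b only, and had r = 0.415 (0.170 without 2 libraries). Acinar markers had r = 0.250. Alpha cell markers had r = −0.295, and −0.598 without 2 libraries. Ifi27 was the only one of the 32 genes with an adjusted permutation p under 0.05 for a negative correlation with beta cell markers, at r = −0.623 (n = 20). The first 3 principal components of the 32 genes held 28.4%, 13.0% and 11.6% of their variance.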
